A study of Mus musculus with 22 samples.

Results

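Ribosome-bound RNA from cerebellar Purkinje cells (PCs) was compared between Tsc1 mutant and control mice that received no rapamycin. The comparison was set by the sample labels and used 6 of the 22 libraries of the series, 3 with the genotype label CC (mutant) and 3 with the label WW (control). Mutant animals were Tsc1 fl/fl L7Cre;Rosa26fsTRAP and control animals were Tsc1+/+ L7Cre;Rosa26fsTRAP. They were bred from Rosa26fsTRAP mice on a C57BL/6 background and Tsc1 fl/+ L7Cre mice, whose background was not stated. Both genotypes therefore carried Cre, driven by the L7 (Pcp2) promoter, and the Rosa26 allele from which Cre switches on a GFP-tagged ribosomal protein, and they differed in the loxP-flanked Tsc1 alleles of the mutants. Translating ribosome affinity purification (TRAP) was done on the cerebellum of each animal: antibodies to GFP captured the tagged ribosomes from a lysate of the whole tissue. The age of the TRAP animals was not given in the sources used here. The other libraries were 6 TRAP libraries labelled with rapamycin, 3 of each genotype, and 10 libraries of total RNA from PCs sorted for GFP, 5 of each genotype. The sorted animals came from a different cross, in which the L7 promoter also drives GFP. The study's methods give them as Tsc1 fl/fl or Tsc1+/+ L7Cre/L7GFP and name more than a single age. Its results describe the controls as Tsc1+/+ L7GFP.

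TSC1 and TSC2 form a complex that restrains mTORC1, a kinase complex that promotes protein synthesis, ribosome production and cell growth, and rapamycin inhibits mTORC1. PCs are large inhibitory neurons and the sole output of the cerebellar cortex. They are known for strong calcium release from the endoplasmic reticulum, and mice that lose Tsc1 in PCs are used as a model of tuberous sclerosis. The amount of a transcript recovered by TRAP depends on how much of it is in the tagged cells and on how much of it is on ribosomes. In bulk RNA of this kind, fewer cells of a type and less RNA per cell cannot be told apart.

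Control libraries held 4.90, 5.73 and 6.38 M estimated fragments, and mutant libraries held 2.68, 3.41 and 2.84 M. Each deposited value was the number of estimated fragments of a locus divided by a size factor of the library, so that 1 fragment was worth 0.851, 0.627 and 0.557 units in controls 1 to 3 and 1.96, 1.51 and 0.303 units in mutants 1 to 3. Mutant 3 stood apart from the other libraries: its 10 highest loci took 40.5% of its fragments, against 70.8% and 68.1% in the other mutants and 62.2% to 62.7% in controls. Levels are given as log2(value + 1) and differences as mutant minus control on that scale, which understates the change of low loci. A locus was called when its unadjusted p in limma was below 0.01 and the fold change was above 2. Gene names were available only for loci in the lists that the study drew up partly from these libraries, so counts over named genes describe those lists and are not independent evidence of a direction. No locus was paired with Tsc1 (GRCm38, chromosome 2, 28641228 to 28691167, plus strand), so the targeted gene was not analysed here and does not check the labels.

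Loci called higher in mutant libraries included the apoptosis gene Bcl2l11, the helicase gene Rtel1 and the astrocyte genes Gfap and Apoe, and loci called lower included copies of 5S ribosomal RNA, the small nuclear RNA genes Rnu11 and Rnu12, the calcium pump gene Atp2a3 and the GABA-B receptor gene Gabbr1. Of 9658 loci tested, 189 were called (1.96%), 91 of them higher in mutants (0.942%) and 98 lower (1.01%). Protein-coding genes made up 71 of the 91 higher loci and 29 of the 98 lower ones. Short noncoding RNA genes, which are ribosomal, small nuclear, small nucleolar, small Cajal body and micro RNAs, made up 45 of the lower loci and none of the 91 higher ones. After Benjamini-Hochberg adjustment 7 loci had p below 0.05 (0.0725%), each of them higher in mutants, and the smallest adjusted p was 0.0011. Controls were at or near 0 at all 7. These loci passed the filter, a mean level of at least 2 over the 6 libraries, only through the mutants. The groups did not overlap at 1484 loci (15.4%), which included each of the 189 called loci. With 1 library left out the number of calls ranged from 98, without mutant 2, to 354, without control 2, and it was 117 without mutant 1 and 121 without mutant 3. The balance of directions depended on the scaling: 48.1% of called loci were higher with the deposited scaling, 94.3% of 88 with values scaled to equal totals and 93.9% of 244 with equal totals outside the 10 highest loci, which moved the median over all loci by 0.47 and 0.51.

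**Figure D1:**
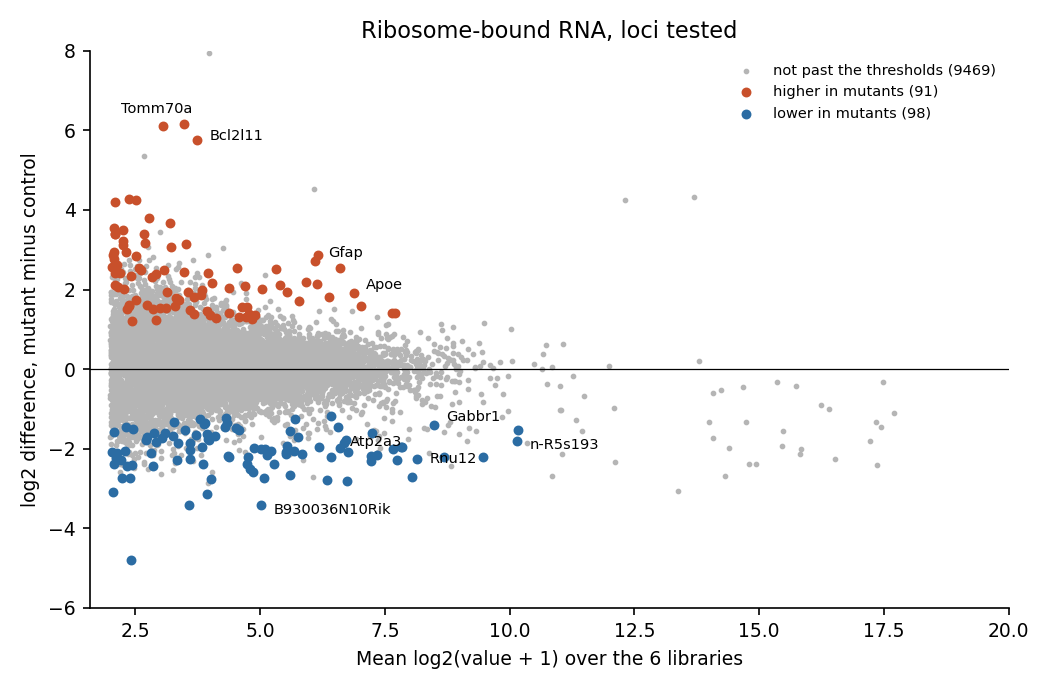
Ribosome-bound RNA in mutants against controls. Each point is 1 of the loci tested, the x axis is the mean log2(value + 1) over the 6 libraries and the y axis is the log2 difference, mutant minus control. Red points are the 91 loci called higher and blue points the 98 called lower, and 2 loci with differences over 8 lie outside the axes. Several of the lower loci, such as n-R5s193, Rnu12 and Gabbr1, had high levels, whereas most of the largest increases had low mean levels.

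5S ribosomal RNA is a component of the large ribosomal subunit and is encoded by many near-identical copies and fragments of copies across the genome. The genes named n-R5s are annotated copies, and their transcripts in GENCODE vM21 (GRCm38) were aligned to that of n-R5s193, the copy with the highest level. Across the other 25 named copies, identity over aligned bases ranged from 84.6% to 94.3%, with a median of 88.9%. How many reads fitted more than 1 copy was not measured here, so the values of single copies are uncertain and the copies may not be separate measurements.

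5S ribosomal RNA was lower in the mutants at each of the 26 n-R5s loci, 25 of which were called, against 1.01% of all loci called lower. All but 1 of these names came from the list of changed TRAP loci. The median difference was −2.14, with a range of −2.75 to −1.20. The highest locus, n-R5s193, had levels of 11.44, 10.58 and 11.12 in controls 1 to 3 and 9.63, 8.82 and 9.28 in mutants 1 to 3. Its difference was −1.81 (SE 0.40, adjusted p = 0.29), and the lowest control lay above the highest mutant. At n-R5s56 the control levels were 10.95, 10.29 and 10.49 and the mutant levels 8.92, 7.92 and 8.23, a difference of −2.22 (SE 0.41, adjusted p = 0.19). n-R5s46 had a larger difference of −2.72 (SE 0.49, adjusted p = 0.19), with control levels of 9.80, 9.06 and 9.32 and mutant levels of 7.44, 5.86 and 6.73. Mutants were thus below controls in all library pairs at these copies. As a share of all fragments, however, the 33 ribosomal RNA loci together took 0.315%, 0.216% and 0.275% in the controls and 0.0657%, 0.0334% and 0.274% in the mutants. Mutants 1 and 2 lay below the controls by this measure and mutant 3 lay within their range. With equal totals none of the 26 loci was called and all stayed below 0 (median −1.74), with equal totals outside the 10 highest loci 5 were called, and without mutant 3 the number was 18.

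**Figure D2:**
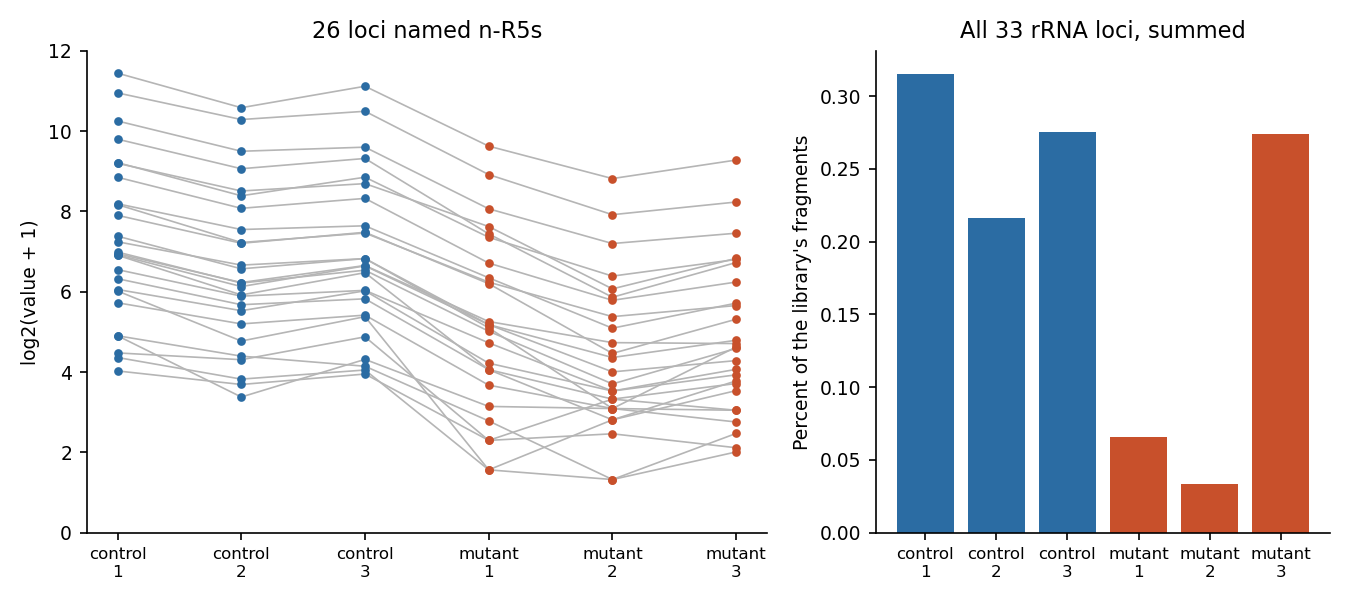
5S ribosomal RNA in each library. On the left, points are log2(value + 1) of the 26 n-R5s loci in the 3 control (blue) and 3 mutant (red) libraries, with a grey line joining the values of 1 locus. On the right, bars give the percent of each library's fragments at all 33 ribosomal RNA loci. The mutants sit below the controls in scaled values, whereas the share in mutant 3 (0.274%) falls within the control range of 0.216% to 0.315%.

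Other short noncoding RNAs were lower as well. Of 55 short noncoding loci with a name and a test, 45 were called lower and all 55 differences were below 0; the list of changed TRAP loci supplied 43 of the names, and 2 of the 12 loci named from another list alone were called. With equal totals none of the 55 was called and all stayed below 0 (median −1.68), with equal totals outside the 10 highest loci 10 were called, and with 1 library left out 34 to 48 were. As a share of all fragments the 55 loci took 0.398%, 0.265% and 0.394% in the controls and 0.0843%, 0.0448% and 0.357% in the mutants, so mutant 3 lay within the control range. U11 (Rnu11) and U12 (Rnu12) are small nuclear RNAs of the minor spliceosome, and Scarna3b is a small Cajal body RNA. They are shown, in lower case and from GENCODE vM21 transcripts on GRCm38, because they are the spliceosomal and modification RNAs with the clearest names among the lower loci.
Rnu11 (chr4:132270080-132270213, minus strand): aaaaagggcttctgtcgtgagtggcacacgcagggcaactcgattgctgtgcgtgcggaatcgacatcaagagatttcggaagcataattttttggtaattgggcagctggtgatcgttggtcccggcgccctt
Rnu12 (chr15:83149644-83149794, plus strand): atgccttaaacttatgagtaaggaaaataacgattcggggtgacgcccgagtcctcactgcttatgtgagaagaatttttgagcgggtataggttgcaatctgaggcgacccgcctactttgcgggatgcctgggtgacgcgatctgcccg
Scarna3b (chr12:80391613-80391751, minus strand): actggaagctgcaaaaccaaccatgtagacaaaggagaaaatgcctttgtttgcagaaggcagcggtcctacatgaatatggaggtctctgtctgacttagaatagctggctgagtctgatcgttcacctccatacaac
Rnu12 had levels of 9.40, 8.82 and 9.59 in the controls and 7.76, 6.58 and 6.70 in the mutants, a difference of −2.25 (SE 0.45, adjusted p = 0.24). Rnu11 differed by −2.19 (SE 0.51, adjusted p = 0.33), with 8.35, 7.53 and 9.04 in the controls and 6.60, 5.48 and 6.27 in the mutants. Every mutant lay below every control for both RNAs. Scarna3b had the largest decrease of the named small RNAs, −3.14 (SE 0.60, adjusted p = 0.20), from 5.63, 4.87 and 6.02 to 1.57, 2.00 and 3.54. Its level in mutant 1 was that of 1 fragment, so the size of this decrease is uncertain. The small nuclear RNAs Gm25939 and Gm25099 differed by −2.81 (SE 0.45) and −2.78 (SE 0.57). The small nucleolar RNAs Snord32a and AF357399, of the class that guides chemical modification of ribosomal RNA, differed by −2.02 (SE 0.56) and −3.10 (SE 0.80), and AF357399 rested on 0, 0 and 6 fragments in the mutants. Small RNAs that were not called included Snord13, at −0.55 (adjusted p = 0.79), and Rny3, at −1.87 (adjusted p = 0.57).

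The miRNA locus Mir3068 was also lower, with levels of 5.23, 4.31 and 5.06 in the controls and 2.78, 3.53 and 2.94 in the mutants (difference −1.78, SE 0.41, adjusted p = 0.32). The mutants held 3, 7 and 22 fragments here, and these libraries do not separate a precursor or host transcript from the mature arms. The mature sequences from RefSeq (GRCm38.p6) are given with the seed, bases 2 to 8, in capitals.
mmu-miR-3068-3p (chr12:87437685-87437706, minus strand): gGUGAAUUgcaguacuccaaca
mmu-miR-3068-5p (chr12:87437724-87437747, minus strand): uUGGAGUUcaugcaaguucuaacc
The arms have different seeds. Among the noncoding genes with the largest decreases was also B930036N10Rik, an antisense gene, which differed by −3.42 (SE 0.56, adjusted p = 0.19) from 7.20, 5.73 and 7.25 in the controls to 3.43, 2.61 and 3.86 in the mutants; whether counting used strand was not given, so its reads and those of the gene it overlaps cannot be told apart.

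The protein-coding genes called higher included Bcl2l11 (chromosome 2, 128126038 to 128162547, plus strand), which encodes BIM, a protein that promotes apoptosis. Controls 1 to 3 had levels of 1.43, 1.17 and 0.00, from 2, 2 and 0 fragments, and mutants 1 to 3 had levels of 7.07, 6.31 and 6.47, from 68, 52 and 288 fragments. The difference was 5.75 (SE 0.48, adjusted p = 0.0092), and it was called in each of 6 fits that left out 1 library. Bcl2l11 passed the filter on low values only through the mutants, so this p-value and these calls are not separate support. Rtel1, a DNA helicase that protects telomeres, was at 4.90, 4.21 and 5.03 in the controls and 7.58, 7.69 and 7.50 in the mutants (difference 2.87, SE 0.36, adjusted p = 0.094). The 3 mutants were close together and above all controls for both genes.

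In the list of genes for cell death, DNA repair and ADP-ribose, 12 of 19 genes passed the filter on low values, 6 were called higher and 1 lower, and the median difference was 1.26, beside 0.07 over all loci tested. Over the 851 named and tested protein-coding loci, 8.34% were called higher, 67.3% were above 0 and the median was 0.42. The 6 higher calls became 3 without any 1 of the mutants, without control 1, with the replicate block or with equal totals, and 2 with all 4 TRAP groups in 1 fit. Only 3 of these genes had a mean level of at least 5, and their median was −0.10. The study's list of changed TRAP loci supplied 7 of the names. Besides Bcl2l11 and Rtel1, the higher genes included Xrcc4, which acts in the joining of DNA ends (1.50, SE 0.37), Terf2ip, a telomere protein (1.41, SE 0.40), and Brcc3, a deubiquitinase of DNA repair complexes (1.38, SE 0.35). Rad50, a subunit of the complex that senses DNA breaks, was the lower gene, from 4.36, 3.38 and 3.04 to 1.57, 2.00 and 1.90 (difference −1.77, SE 0.44, adjusted p = 0.38). Its level in mutant 1 was that of 1 fragment. Parp1, an ADP-ribose polymerase, and Parg, which removes ADP-ribose, had differences of −1.01 (adjusted p = 0.58) and 1.14 (adjusted p = 0.56) and were not called. The pro-apoptotic genes Bid, Hrk, Pmaip1 and Fas did not pass the filter.

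Large increases elsewhere came mostly from genes with few fragments in the controls: 49 of the 91 higher loci had under 10 fragments in every control, and 25 had over 10 in every library. Tg, which encodes thyroglobulin, was listed at 0 in controls 1 and 3 and at 0.70 in control 2, and had levels of 4.50, 4.36 and 4.64 in the mutants (difference 4.27, SE 0.36, adjusted p = 0.0092). AC166344.3 went from 0.00, 1.17 and 0.00 to 7.13, 6.54 and 5.95 (difference 6.15, SE 0.49, adjusted p = 0.0092). Gm2115 was at 0.00 in all 3 controls, on less than 1 estimated fragment each, and had levels of 4.62, 4.28 and 3.68 in the mutants (adjusted p = 0.011). The mutants stood apart from the controls for all 3 genes, on counts of 11 to 201 fragments in the mutants. Tg and Gm2115 passed the filter on low values in only 3 of 6 fits that left out 1 library. Other genes among the 12 largest increases were Lmcd1 (3.80), Zfp704 (3.66), Thegl (3.50), Rflnb (3.39), the centromeric histone Cenpa (3.17), Tpd52l1 (3.14), Anxa3 (3.12) and Taf1b (2.95), with at most 16 fragments in any control.

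Tomm70a, an import receptor of the outer mitochondrial membrane, was listed at 0 in all 3 controls and had levels of 5.59, 6.34 and 6.41 in the mutants, from 24, 53 and 277 fragments (adjusted p = 0.0026). A value of 0 can be a failed estimate of abundance, since a gene used by most cells was at 0 here, and no fold change is given for it. On chromosome 16, Tomm70a (57121703 to 57156705, plus strand) ends 12156 bases before Tbc1d23 (57168862 to 57231504, minus strand), and an assembled locus that overlaps exons of Tbc1d23 was also at 0 in all controls. This locus took 5.30% to 8.50% of the fragments of the 3 mutants (adjusted p = 0.0011). A further locus, on the strand opposite E030025P04Rik on chromosome 11, was at 0 in the controls and took 20.2%, 18.9% and 2.89% of the mutant libraries (adjusted p = 0.0085). Among rapamycin libraries it took 19.1% to 21.7% of the mutants and was at 0 in the controls (adjusted p = 3.5e-05). The Tbc1d23 locus was at 0 in rapamycin controls 1 and 3 and took 11.95% of rapamycin control 2, which was also the rapamycin control with Tomm70a above 0, at 39 fragments. In sorted PCs neither locus differed between genotypes beyond the thresholds (−0.24, adjusted p = 0.77 for Tbc1d23 and −0.71, adjusted p = 0.55 for E030025P04Rik).

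**Figure D3:**
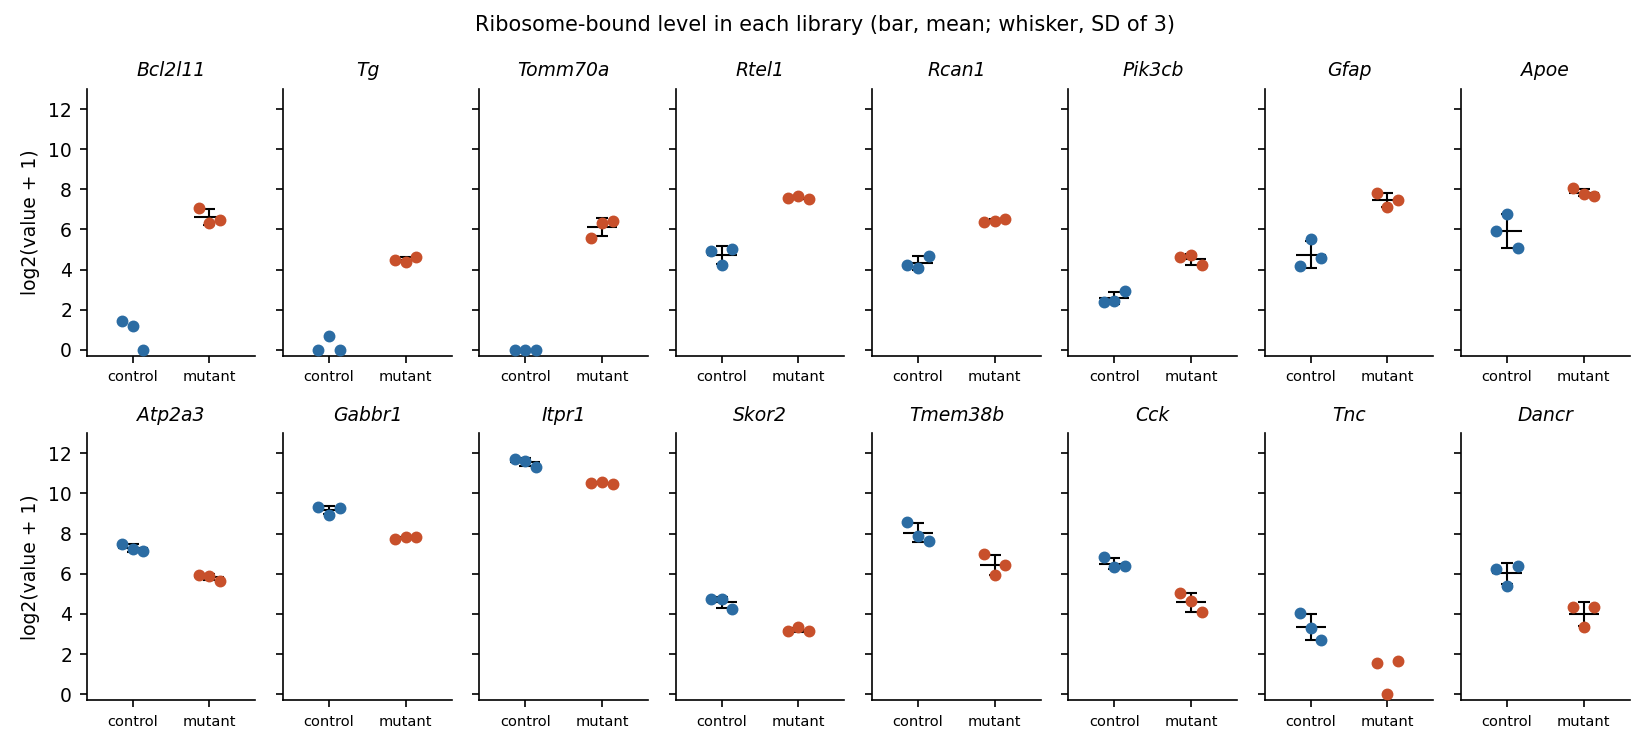
Levels of 16 genes in each TRAP library without rapamycin. The y axis is log2(value + 1), blue points are the 3 controls and red points the 3 mutants, horizontal bars are means and whiskers are SD, and no mean is drawn where a library is listed at 0. The upper row has genes that were called higher in mutants, and the lower row has genes that were lower, of which Itpr1 was not called (adjusted p = 0.55).

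Of 4 tested astroglial markers, 2 were called higher and 1 lower. Gfap, the intermediate filament of astrocytes, had levels of 4.17, 5.51 and 4.57 in the controls and 7.81, 7.12 and 7.45 in the mutants (difference 2.71, SE 0.45, adjusted p = 0.19). Apoe, an apolipoprotein made mainly by astrocytes in the brain, was at 5.92, 6.77 and 5.06 in the controls and 8.04, 7.79 and 7.68 in the mutants (difference 1.92, SE 0.49, adjusted p = 0.39). Controls and mutants did not overlap for either gene. The microglial receptor gene Csf1r had levels of 2.61, 2.05 and 0.00 against 4.06, 3.86 and 3.45 (adjusted p = 0.55) and was not called.

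Most markers of cells other than PCs had higher means in the mutants. The summed value of 7 astroglial markers was 105 to 206 in controls and 388 to 518 in mutants. For 11 microglial markers the sums were 0.557 to 11.9 and 45.7 to 86.3, for 4 oligodendrocyte markers 2.23 to 15.7 and 23.7 to 33.4, and for 7 vascular markers 0 to 3.14 and 13.3 to 32.2. Mutant and control sums did not overlap in any of the 4 lists. Controls 1 to 3 held 6, 19 and 1 fragments of the microglial markers and 0, 5 and 0 of the vascular ones. In the rapamycin libraries the sums of the genotypes overlapped in all 4 lists. There the astroglial sums were 60.1 to 141 in controls and 61.0 to 196 in mutants, and the microglial sums 17.7 to 46.8 and 5.43 to 20.3. At 22 of the 29 markers every mutant lay above every control. Over all loci that passed the filter 15.4% had no overlap in either direction, which is not a like background for these markers. The markers could be named only through lists drawn up partly from these libraries. These counts are therefore not independent evidence of a direction. Most of the 29 did not pass the filter on low values, and 8 were listed at 0 in all controls. Of the 29 markers, 26 had a higher mean in the mutants. The exceptions were the astroglial genes Bcan and Sox2, with lower means in the mutants, and Tnc, which encodes the matrix protein tenascin C and was called lower. The part that RNA of these other cells had in the remaining differences was not tested.

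**Figure D4:**
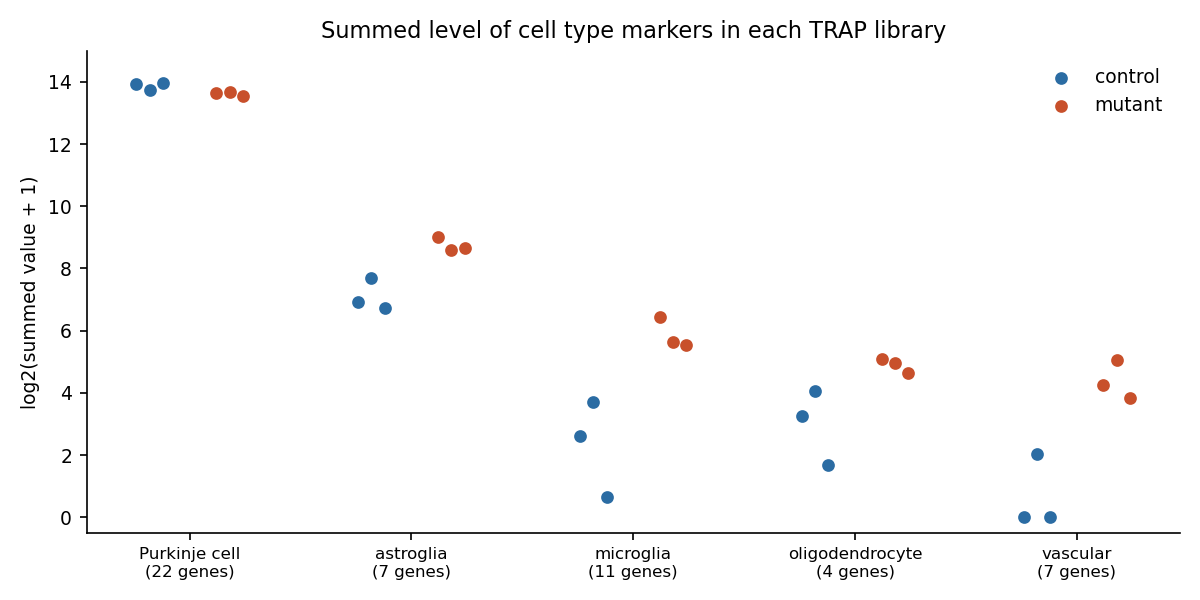
Summed ribosome-bound level of cell type markers, in scaled values. The y axis is log2(summed value + 1), and each point is 1 library, blue for the 3 controls and red for the 3 mutants. PC markers lie highest, with the mutants (11846 to 13119) just below the controls (13762 to 16060), whereas the mutants lie above the controls for the 4 other cell classes.

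PC markers were far above the markers of other cells in every library, and few of them were called. Their summed value was 13762 to 16060 in controls and 11846 to 13119 in mutants, which did not overlap. As a share of all fragments, however, they took 0.376%, 0.383% and 0.452% of the controls and 0.241%, 0.255% and 1.38% of the mutants, so mutant 3 lay above every control by this measure. Of 22 markers, 21 were tested, none was called higher and 2 were called lower, with a median difference of −0.23 that turned to 0.17 and 0.23 under the scalings to equal totals. Gad2, a GABA-synthesizing enzyme, was listed at 0 in 4 of 6 libraries and was the marker that did not pass the filter. Pcp2, whose promoter drives Cre here, had levels of 10.82 ± 0.31 (SD, n = 3) in the controls and 10.86 ± 0.24 (SD, n = 3) in the mutants. Calb1, a calcium buffer, was at 10.65, 10.50 and 10.79 against 10.42, 10.60 and 10.90. Both genes overlapped between genotypes, with differences of 0.04 and −0.01.

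Genes of calcium release and GABA-B signalling were among the PC genes that were lower. Atp2a3, the SERCA3 pump that refills the endoplasmic reticulum (chromosome 11, 72961169 to 72993044, plus strand), had levels of 7.48, 7.21 and 7.14 in the controls and 5.95, 5.86 and 5.66 in the mutants (difference −1.46, SE 0.32, adjusted p = 0.29). Tmem38b, a cation channel of the endoplasmic reticulum that supports calcium release, was at 8.58, 7.90 and 7.65 against 6.96, 5.94 and 6.41 (difference −1.60, SE 0.43, adjusted p = 0.46). Gabbr1, the ligand-binding subunit of the GABA-B receptor (chromosome 17, 37045966 to 37075067, plus strand), was at 9.35, 8.94 and 9.27 against 7.73, 7.81 and 7.81 (difference −1.40, SE 0.32, adjusted p = 0.32). All mutants were below all controls for the 3 genes in scaled values. As a share of all fragments mutants 1 and 2 were below the controls and mutant 3 was above all of them: for Atp2a3 the shares were 0.00426%, 0.00410% and 0.00395% in the controls and 0.00116%, 0.00111% and 0.00575% in the mutants. Each of these calls was lost under both scalings to equal totals, where the differences lay between −1.21 and −0.93, and without mutant 3, where they were −1.37 for Atp2a3, −1.59 for Tmem38b and −1.41 for Gabbr1. Of 6 fits that left out 1 library, 4 called Atp2a3, 2 called Tmem38b and 2 called Gabbr1.

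The partner genes Itpr1 and Gabbr2, picked after their values were seen, were lower without being called. Itpr1, the IP3 receptor of PCs, had levels of 11.70, 11.63 and 11.32 in the controls and 10.53, 10.55 and 10.48 in the mutants, a difference of −1.03 (adjusted p = 0.55). Gabbr2, the subunit that pairs with Gabbr1, was at 7.47, 7.25 and 7.58 against 6.48, 6.39 and 6.36, also −1.03 (adjusted p = 0.55). Neither gene overlapped between genotypes, as at 15.4% of all loci tested in either direction. In the calcium list 9 tested genes were above 0 and 11 below. In the GABA-B and G protein list 8 were above 0 and 4 below. Among 20 tested genes of calcium release and buffering, 1 was called higher and 2 lower, and the median was −0.09, which turned to 0.24 after quantile normalization and to 0.30 and 0.37 under the scalings to equal totals. The higher gene was Rcan1, an inhibitor of calcineurin, at 4.24, 4.06 and 4.70 in the controls and 6.38, 6.42 and 6.54 in the mutants (difference 2.11, SE 0.34, adjusted p = 0.19). In the GABA-B and G protein list of 12 tested genes, Gabbr1 was called lower and Arrb1, an arrestin that quenches receptor signalling, was called higher (1.58, SE 0.40), with a median of 0.17. The transcription factor gene Skor2, a PC marker, was called lower, from 4.73, 4.74 and 4.23 to 3.15, 3.33 and 3.15 (difference −1.36, SE 0.33, adjusted p = 0.38), on 4, 6 and 26 fragments in the mutants.

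Synaptic genes gave no calls in the main limma fit. None of 12 tested genes of presynaptic release and none of 18 tested genes of postsynaptic scaffolds and receptors was called there, and 2 and 1 of them had an unadjusted p below 0.05. Alternative fits called 2 presynaptic genes higher with limma-voom, a pseudocount of 10, an intensity trend or a mean level of at least 5. After quantile normalization or with equal totals 1 was called higher. No postsynaptic gene was called in any of these fits. Cplx1, a complexin that regulates vesicle fusion, had a difference of 1.07 (adjusted p = 0.55), and Rims4, of the active zone, 1.47 (adjusted p = 0.58). Pick1, a scaffold for AMPA receptors, was at −0.90 (adjusted p = 0.60).

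Few genes of the mTOR pathway and of translation were called. In the list of mTOR, PI3K and AMPK signalling, 14 of 17 genes were tested, 1 was called higher and 1 lower, and the median difference was 0.58. Pik3cb, a catalytic subunit of PI3K upstream of mTOR, was at 2.39, 2.43 and 2.94 in the controls and 4.62, 4.73 and 4.22 in the mutants (difference 1.93, SE 0.35, adjusted p = 0.19). Genotypes did not overlap for this gene. Larp1, a regulator of mRNAs that depend on mTORC1, had a difference of 0.61 (adjusted p = 0.70). Of 14 tested genes for ribosomal proteins and translation, Paip2b, an inhibitor of poly(A)-binding protein, was called higher (1.25, SE 0.33, adjusted p = 0.42). The ribosomal protein genes Rpl37, Rplp0 and Rps16 had differences of 0.51, 0.46 and 0.53 and were not called (adjusted p = 0.74 to 0.75).

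The cytoskeleton and membrane trafficking lists held more higher than lower calls, as did the named protein-coding loci together (8.34% higher and 3.41% lower), and the study's changed TRAP list had supplied 9 of the names in each. Among 30 tested genes of the cytoskeleton and cilia, 6 were called higher and 1 lower, and 29 differences were above 0 (median 0.93). The 6 higher calls became 3 without mutant 1 or mutant 2, 2 without mutant 3, and 2 with all 4 TRAP groups in 1 fit. The higher genes were Rflnb, Myo1e, an unconventional myosin (2.76, SE 0.41), Parvb, which links integrins to actin (2.55, SE 0.53), the intraflagellar transport genes Ift74 (1.73, SE 0.44) and Ift81 (1.37, SE 0.38), and Ttll4, which adds glutamate chains to tubulin (1.56, SE 0.43). The lower gene was Amot, an angiomotin (−2.11, SE 0.47). Among 32 tested trafficking genes, 4 were called higher and none lower (median 0.72): Tbc1d20, a regulator of a Rab GTPase (1.92, SE 0.43), Dennd4a (1.57, SE 0.40), Clvs2 (1.53, SE 0.34) and Sar1b, a GTPase of COPII vesicles (1.50, SE 0.40). These 4 calls became 1 without mutant 1 or mutant 3, none without mutant 2 and none with equal totals. At unadjusted p below 0.05, limma found 2 trafficking genes with lower values, Sec22a (−0.99, adjusted p = 0.58) and Snx19 (−0.93, adjusted p = 0.60).

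Other lists were mixed. Of 34 tested mitochondrial genes, 3 were called higher, a share near the 8.34% of named protein-coding loci, and 1 lower (median 0.72). Of the 3, Tomm70a rests on the listed zeros described above, and the others were Gcsh of the glycine cleavage system (1.30, SE 0.31) and the mitoribosomal gene Mrps22 (1.32, SE 0.35), which was called in 0 of 6 fits that left out 1 library. The 3 calls became 1 without any 1 of the mutants. Etfa, an electron carrier of fatty acid oxidation, was the lower gene (−1.37, SE 0.39). Of 25 genes of transcription and RNA processing, 5 were called higher and 1 lower (median 0.19, −0.54 over the 5 genes with a mean level of at least 5, and −0.10 to −0.05 without any 1 of the mutants, where 2 or 3 were called higher), including the general transcription factor genes Gtf2f2 (1.86, SE 0.40) and Gtf2h3 (1.25, SE 0.33), Prkra (2.33, SE 0.43) and the helicase gene Ddx49 (−1.71, SE 0.47). Of 8 tested proteasome genes and 5 circadian genes none was called in the main limma fit or by limma-voom. In each list 1 gene had an unadjusted p below 0.05 in limma, Psmd7 at 0.96 (adjusted p = 0.58) and the clock gene Per2 at −1.38 (adjusted p = 0.52). A circadian gene was called lower without the filter on low values and after quantile normalization, and Per2 was called lower without mutant 3 (−1.66). Among 11 tested genes for secreted proteins, 3 were called higher and 3 lower (median −0.61), and without any 1 of the mutants none was called higher and 1 lower. The neuropeptide gene Cck was at 6.81, 6.32 and 6.36 in the controls and 5.02, 4.65 and 4.07 in the mutants (difference −1.92, SE 0.39, adjusted p = 0.26). Nenf and the proprotein convertase gene Pcsk6 were lower by less, at −1.26 (SE 0.35) and −1.18 (SE 0.34), and Olfm1 and Igfbp6 were higher, at 1.41 (SE 0.33) and 1.29 (SE 0.34).

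The largest decreases among protein-coding genes had few fragments in the mutants. Chst8, a sulfotransferase gene, was at 5.06, 4.16 and 4.96 in the controls and 2.81, 2.26 and 2.31 in the mutants, from 3, 3 and 13 fragments (difference −2.27, SE 0.40, adjusted p = 0.19). Slc31a2, of the copper transporter family, was at 3.69, 2.98 and 3.31 against 1.57, 1.33 and 0.93 (difference −2.05, SE 0.37, adjusted p = 0.19), and both genes were called in each of 6 fits that left out 1 library. Tnc was at 4.03, 3.29 and 2.72 against 1.57, 0.00 and 1.64, from 1, 0 and 7 fragments in the mutants. The long noncoding RNA gene Dancr was at 6.25, 5.41 and 6.39 against 4.37, 3.33 and 4.33 (difference −2.01, SE 0.46, adjusted p = 0.32). The others, Zbtb48 (−2.40), Col20a1 (−2.39), Cdkl3 (−2.24), Pigu (−2.10) and Zfp973 (−2.09), had at most 11 fragments in any mutant.

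In the other 6 TRAP libraries, from rapamycin-treated animals of the same genotypes, few of these calls recurred. The labels give no dose or duration. There, 107 of 8728 loci tested were called (1.23%). Of the 91 loci called higher without rapamycin, 63 were tested under rapamycin and 43 had the same sign (68.3%). Of all loci tested there, 63.0% were above 0. Among the 63, 2 were called higher again: the locus opposite E030025P04Rik and Msrb1, a methionine sulfoxide reductase gene. Msrb1 was at 0.00, 1.53 and 1.42 in controls and 2.78, 3.53 and 3.84 in mutants without rapamycin, and under rapamycin it was listed at 0 in all controls and was at 3.57, 4.41 and 4.41 in mutants. Of the 98 lower loci, 84 were tested, 62 had the same sign (73.8%) and 1, which has no gene name, was called lower again.

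Values of single genes under rapamycin varied. For Bcl2l11 the difference was −0.74 (SE 1.43), for Gfap 0.41 (SE 0.69), for Apoe −0.10 (SE 0.68) and for Gabbr1 0.03 (SE 0.51), with adjusted p from 0.91 to 0.99. Tmem38b (−1.95, SE 0.69) and n-R5s210 (−1.53, SE 0.69) had values below 0 there and were not called (adjusted p = 0.85 and 0.87). The genotype difference itself was compared between untreated and treated animals in a limma fit of all 12 TRAP libraries. The interaction passed the thresholds at 199 of 9658 loci (2.06%), among them 10 of the 91 higher loci and 6 of the 98 lower ones. The untreated libraries enter both the interaction and the choice of the higher and lower loci, so these counts are not independent of that choice. Adjusted p was below 0.05 for 1 of these 16, Rad50, whose difference was more positive under rapamycin by 4.89 (adjusted p = 0.036). This adjusted p was below 0.05 in 7 of 22 alternative fits and above it without any 1 of the 6 mutant libraries (0.081 to 0.15). The Rad50 estimate stayed at 4.89 without any 1 of the rapamycin controls, so these libraries shared the same level, as when all are listed at 0. Among the 22 fits it was largest with a pseudocount of 0.1 and smallest with a pseudocount of 10. Without rapamycin, Rad50 in mutant 1 was at the level of 1 fragment. Since a listed 0 can be a failed estimate of abundance, the size of this interaction is uncertain. For Bcl2l11 the interaction was −6.49 (adjusted p = 0.21) and for Gabbr1 1.43 (adjusted p = 0.66).

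**Figure D5:**
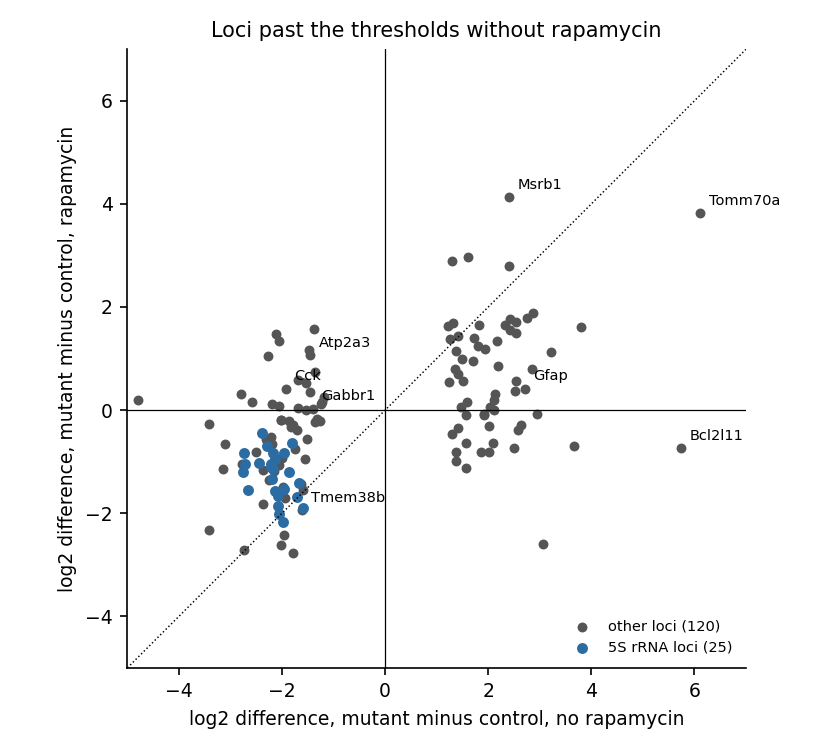
Genotype differences without and with rapamycin. Each point is a locus called without rapamycin and tested with it, the x axis is the log2 difference, mutant minus control, without rapamycin and the y axis is the same under rapamycin. The 25 blue points are 5S ribosomal RNA loci, the 120 grey points are other loci, the 2 loci with differences over 8 are left out, and the dotted line marks equal differences. Blue points lie below 0 on both axes, and Bcl2l11 lies above 0 without rapamycin and below 0 with it.

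Total RNA of sorted PCs came from other animals and was scaled separately, so only differences are set beside those of TRAP. In sorted PCs 242 of 16455 loci were called (1.47%), none had adjusted p below 0.05 in limma, and 1861 had an unadjusted p below 0.05. Of the 91 loci called higher in TRAP, 86 were tested in sorted PCs and 46 had the same sign (53.5%). Of all loci tested in sorted PCs, 52.6% were above 0. Among the 86, 1 was called higher, Cenpa (1.20, SE 0.32). Of the 98 lower loci 36 were tested, 20 had the same sign (55.6%), and Gabbr1 (−1.24, SE 0.31), Atp2a3 (−2.29, SE 0.66) and Mfsd12 (−1.08, SE 0.25) were called lower. Tnc was called in the other direction, higher in sorted mutants (1.35, SE 0.35), and the adjusted p of each of these 5 genes was 0.39. Bcl2l11 (0.34, SE 0.21), Rtel1 (0.03, SE 0.34), Tomm70a (−0.07, SE 0.17) and Gfap (−0.30, SE 0.27) were not called there.

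The sorted libraries carry 3 codes that begin with MS in their labels, and only 1 code holds both genotypes, 2 libraries of each, while 2 of the 5 controls share an animal number. With this code as a term, the differences in sorted PCs were −0.44 for Gabbr1, −0.74 for Atp2a3, −0.57 for Mfsd12, 0.63 for Tnc and 0.995 for Cenpa, and none of the 5 was called. Itpr1 was −3.21 and called without the term, and −1.21 and not called with it. Within the shared code, Atp2a3 was at 13.04 to 13.99 in the controls and 12.60 to 12.95 in the mutants, and Gabbr1 at 13.79 to 14.64 against 13.73 to 13.81. Atp2a3 therefore did not overlap between genotypes in that code, whereas the Gabbr1 values did. The 12 TRAP libraries share 1 code.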

How the data were processed

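According to the labels and the study's methods, reads (Illumina, paired ends) were trimmed with Trimmomatic 0.39 and aligned to GRCm38 with STAR 2.7.0f, and loci assembled from sorted PCs were quantified with Cufflinks 2.2.1. The authors deposited, for 66494 loci, a signal: estimated fragments divided by 1 size factor per library, with TRAP and sorted tables scaled separately. Loci were named through the study's supplementary files, which pair 1832 loci with a symbol, and 1826 matched GENCODE vM21. Values were tested as log2(value + 1) with limma 3.58.1 in R 4.3.3 (lmFit, eBayes, 2 groups, no covariate) for loci with a mean of at least 2 (5 in sorted PCs), and calls needed unadjusted p below 0.01 and a fold change above 2, as in the study's methods. Fragments were recovered by dividing by the smallest step of each library. Named genes were the 12 largest increases and decreases with class code = or j and a plain symbol, the 4 largest of the other symbols, loci at adjusted p below 0.05, and the called members or the 2 smallest p of each list; Msrb1, Mfsd12, Pcp2, Calb1, Itpr1, Gabbr2 and other uncalled list members were added after their values were seen. A few genes and sequences that these rules chose are not reported here. Members and lists were chosen with earlier results of these data known. The script was tested on simulated data. Columns of the authors' own comparisons, in the supplementary files, were not used. Replicate numbers did not pair the TRAP libraries (correlations of deviations 0.0171, 0.00341 and 0.0479).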

Additional observations from a re-analysis of the deposited data

Results flagged for a closer look

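The difference between genotypes in Rad50 differed between untreated and rapamycin-treated animals: the interaction was 4.89 on the log2 scale (limma, 12 libraries, adjusted p = 0.036). Adjusted p ranged from 0.00047 to 0.999 over 22 alternatives, was below 0.05 in 7 of them, and lay between 0.081 and 0.15 without any 1 of the 6 mutant libraries. The estimate was unchanged without any 1 of the rapamycin controls, which therefore shared the same level, as when all are listed at 0. Its size followed the pseudocount, with the largest value at 0.1 and the smallest at 10. Without rapamycin, Rad50 in mutant 1 was at the level of 1 fragment. The remaining values stood apart in 1 sorted library of a group of 5, by the gap to its nearest neighbour relative to the range of the group. This held for 11 of 146 groups examined, where chance gives about 1 in 20, and all values are log2(value + 1). Sorted control 45 had Col20a1 at 10.62 (the other controls 9.24 to 9.40), Apoe at 16.44 (17.56 to 17.97), Tmem38b at 10.50 (10.66 to 10.71) and Myo1e at 10.45 (11.73 to 12.10). Sorted control 48 had Terf2ip at 11.81 (11.23 to 11.36) and Per2 at 8.32 (10.05 to 10.71), and sorted control 176 had Cck at 8.97 (9.65 to 9.79). In the mutants, library 167 had Bcl2l11 at 10.18 (9.84 to 9.88) and Per2 at 8.95 (10.43 to 10.77), and library 103 had AC166344.3 at 2.83 (6.28 to 7.38) and Olfm1 at 12.13 (13.81 to 14.07).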

How the results depend on the processing

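None of the named called loci changed sign under the alternatives, whereas the median of the PC markers and that of the calcium list turned from negative to positive under both scalings to equal totals, the latter also after quantile normalization, and the balance between higher and lower calls turned under the scalings given here. The 189 calls became 441 without a filter on low values, 120 with a mean of at least 5, 88 with equal totals, 65 with all 4 TRAP groups in 1 fit, and 98 (without mutant 2) to 354 (without control 2) when 1 library was left out; the fits without mutants 1 and 3 gave 117 and 121. Other alternatives gave 151 to 259 calls. The share of calls that were higher in mutants was 71.7% without a filter, 36.7% with a mean of at least 5, 37.1% after quantile normalization, 94.3% with equal totals, 93.9% with equal totals outside the 10 highest loci, 60.0% with 4 groups in 1 fit, and 32.2% to 69.0% with 1 library left out. Loci at adjusted p below 0.05 numbered 74 with a pseudocount of 10, 4 with 0.1, 45 with a mean of at least 5, 16 and 33 with the scalings to equal totals, 68 with an intensity trend, 55 with limma-voom, 2 with 4 groups in 1 fit and 2 to 20 with 1 library left out. With the replicate number as a block there were 202 calls, 137 of them shared with the 189, and 3 at adjusted p below 0.05; the block left the rapamycin comparison with 64. Samples with the same number share only that number.

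Under rapamycin the 107 calls (84 higher and 23 lower) became 55 with a pseudocount of 0.1, 535 without a filter, 39 with a mean of at least 5, 182 after quantile normalization (69 and 113), 71 with limma-voom, 306 with 4 groups in 1 fit and 36 to 430 with 1 library left out. The 199 interaction calls (175 above 0 and 24 below) became 106 with a pseudocount of 10, 375 without a filter, 25 with a mean of at least 5, 29 (9 and 20) and 111 with the scalings to equal totals, 121 with an intensity trend and 142 to 538 with 1 library left out, and the 140 after quantile normalization were 55 above 0 and 85 below. The 12 interaction loci at adjusted p below 0.05 became 0 with a pseudocount of 10, an intensity trend, the replicate block, either scaling to equal totals, or any 1 of the 6 mutant libraries left out. In sorted PCs the 242 calls became 33 with the code in their labels as a term and 104 to 530 with 1 library left out. The causes of these changes were not tested. Of the 100 called loci named in the text or its lists, 50 were called in every fit with 1 library left out in which they were tested, and 23 and 77 of the 100 kept and lost the call with equal totals. Loci with under 10 fragments in a group rest on few molecules, and 0.303 to 1.96 units per fragment set the smallest level that each library can show.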
